A study of Mus musculus with 30 samples.

Results

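Mitochondrially encoded genes are the genes that the mitochondrial DNA itself carries, and they were taken as every name starting with mt- in the deposited files. The washout count table held 37 of them among 55291 names: 13 protein genes, 2 rRNA genes and 22 tRNA genes. On mm10, 28 lie on the plus strand of chrM (12 protein, 2 rRNA and 14 tRNA genes) and 9 on the minus strand (mt-Nd6 and 8 tRNA genes). The authors' time-course gene tables held 13 of them among 21859 rows each, all protein genes, and the PROMPT tables (promoter upstream transcripts) held 18 rows named after them among 32253.

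TT-seq libraries were made from embryonic stem cells of the mouse line E14. In TT-seq a pulse of 4-thiouridine, here of 5 min, marks new RNA, which is then purified and sequenced. The washout experiment had 8 libraries of cells in which SPT16, part of the FACT histone chaperone, carries an auxin-inducible degron tag (AID) with a V5 tag. Cells received 500 nM of the auxin 3-indoleacetic acid (IAA, 4 libraries), which triggers loss of the tagged protein, or ethanol (EtOH, 4 libraries) for 12 h, and were collected 24 h after the medium was renewed. Both lines, 10E and 11D, carry the tag in both treatments and came from separate targeting events, with 2 libraries for each line and treatment. The time course had 22 libraries, 2 for each of 11 groups. They were SPT16-AID cells at 0 h and with EtOH or IAA for 3, 6 or 12 h, and untagged cells at 0 h and with IAA for the same times. Other label fields contradict the titles of many time-course libraries, so those groups rest on the titles, and the washout has no untagged group.

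Mitochondrial DNA is circular and is copied into RNA by its own polymerase, POLRMT, with the factors TFAM and TFB2M. Each strand gives long precursors, which are cut at the tRNAs that punctuate the rRNA and protein genes. One strand gives both rRNAs and nearly all mRNAs, the other gives mt-Nd6 and a minority of the tRNAs. The protein genes code for subunits of respiratory complexes I (Nd genes), III (Cytb), IV (Co genes) and of ATP synthase (Atp genes). Mitochondrial DNA is packed by TFAM and carries no nucleosomes, whereas FACT acts on nucleosomes.

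Transcript sequences from GENCODE M21 show how closely the members lie together and how closely some are copied in the nucleus. The 3 tRNA genes with the highest mean count are given first. They code for the tRNAs of glutamine (mt-Tq, chrM:3772-3842, minus strand), tryptophan (mt-Tw, chrM:4950-5016, plus strand) and proline (mt-Tp, chrM:15356-15422, minus strand). The gene for the isoleucine tRNA, mt-Ti (chrM:3706-3774, plus strand), meets mt-Tq end to end, and capitals mark the 3 bases that both cover.
mt-Tq: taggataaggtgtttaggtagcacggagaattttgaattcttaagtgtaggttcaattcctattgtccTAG
mt-Ti: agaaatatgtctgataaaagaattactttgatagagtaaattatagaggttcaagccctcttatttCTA
mt-Tw: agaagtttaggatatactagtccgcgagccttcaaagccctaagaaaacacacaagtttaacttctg
mt-Tp: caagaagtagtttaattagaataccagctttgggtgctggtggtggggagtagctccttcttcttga

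The only protein gene of the minus strand ends inside the end of its neighbour on the plus strand. Capitals mark the 14 bases that mt-Nd5 and mt-Nd6 share, in the last 40 bases of each gene. Counting used the strand of the reads, so these bases are counted for 1 gene or the other by strand.
mt-Nd5 (chrM:13526-13565, plus strand): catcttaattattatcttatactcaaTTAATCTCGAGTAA
mt-Nd6 (chrM:13552-13591, minus strand): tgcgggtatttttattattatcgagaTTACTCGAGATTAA

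A block of nuclear pseudogenes on chromosome 1 repeats a run of the mitochondrial genome nearly letter for letter. The first 60 bases of mt-Nd3 and of its copy Gm28438 are shown because they hold the only difference found between these genes, T3C, counted from 1 at the 5′ end of the gene with the mitochondrial base first. Capitals mark that base.
mt-Nd3 (chrM:9459-9518, plus strand): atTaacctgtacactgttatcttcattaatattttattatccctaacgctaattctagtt
Gm28438 (chr1:24613060-24613119, minus strand): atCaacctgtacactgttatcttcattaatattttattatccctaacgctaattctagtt

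The washout libraries held 11068135 to 16554314 counts each in EtOH and 6547992 to 10978586 in IAA, so every IAA library was shallower than every EtOH library. Of these counts, 7230 to 59137 per library fell on mitochondrial genes. Stem cell markers were present: 11 of 12 had a mean of at least 1 CPM (counts per 1000000), and Sox2 was listed at 0 while Sox2ot, whose transcript overlaps it, held 988 to 2253 counts per library. Summed fibroblast markers lay at 12.7 to 20.4 CPM, primitive endoderm markers at 6.79 to 11.8 CPM, trophoblast markers at 5.13 to 9.33 CPM and neural markers at 6.79 to 29.1 CPM, against 2100 to 3630 CPM for the stem cell markers. Supt16, the gene of the tagged protein, had 56.8 to 90.3 CPM in EtOH and 91.3 to 131 CPM in IAA libraries (edgeR log2 fold change 0.53, adjusted p = 0.0657), which does not check the labels because IAA acts on the protein. A pair of libraries of the same treatment differed by more than sampling noise in every case, with a chi-square per degree of freedom of 12.2 to 64.9.

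Along the mitochondrial genome, counts were concentrated in 9 members. A run of 11 consecutive genes from mt-Ts1 to mt-Nd4l (chrM:6870-10173), picked out after the counts were seen, held 34 counts in all 8 libraries together, against 268270 in the other 26 genes. Within it mt-Ts1, mt-Td, mt-Tk, mt-Tg and mt-Tr, which are tRNA genes, and mt-Atp8, an ATP synthase subunit gene, were listed at 0. The cytochrome oxidase genes mt-Co2 and mt-Co3 had 14 and 8 counts, the ATP synthase gene mt-Atp6 had 8, and the complex I genes mt-Nd3 and mt-Nd4l had 2 each. The highest count of any of these in 1 library was 6, for mt-Co2. Outside the run the 7 protein genes had 12661 (mt-Nd6) to 68818 (mt-Co1) counts, the rRNA genes 7578 (mt-Rnr1) and 19508 (mt-Rnr2), and the 17 tRNA genes 4 to 437.

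Most protein genes of the run from mt-Ts1 to mt-Nd4l had exact copies elsewhere in the annotation. Of the 50-base windows of mt-Co2, mt-Co3, mt-Atp6, mt-Nd3 and mt-Nd4l, 98.0% to 100% occurred unchanged in another annotated transcript, in chromosome 1 pseudogenes between bases 24611535 and 24616197. The copies Gm28661 (of mt-Co2), Gm10925 (mt-Atp6), Gm28437 (mt-Co3) and Gm10222 (mt-Nd4l) had 0 mismatches over their length. For mt-Co1 and mt-Nd4 the shares were 51.1% and 62.2%, and for mt-Rnr1, mt-Nd1, mt-Nd6, mt-Cytb and every tRNA gene they were 0. The count command in the file header sets no option for pairs that map to several places, and such pairs are then left out. Whether such losses account for the low counts of mt-Co2, mt-Co3, mt-Atp6, mt-Nd3 and mt-Nd4l was not tested. Their counts are not read as a limit on their RNA. The 6 members listed at 0 had no such windows. Nuclear sequence outside annotated transcripts was not searched, so this does not show that they have no copy there. These are short genes between copied neighbours, and whether the copying took their reads was not tested.

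**Figure D1:**
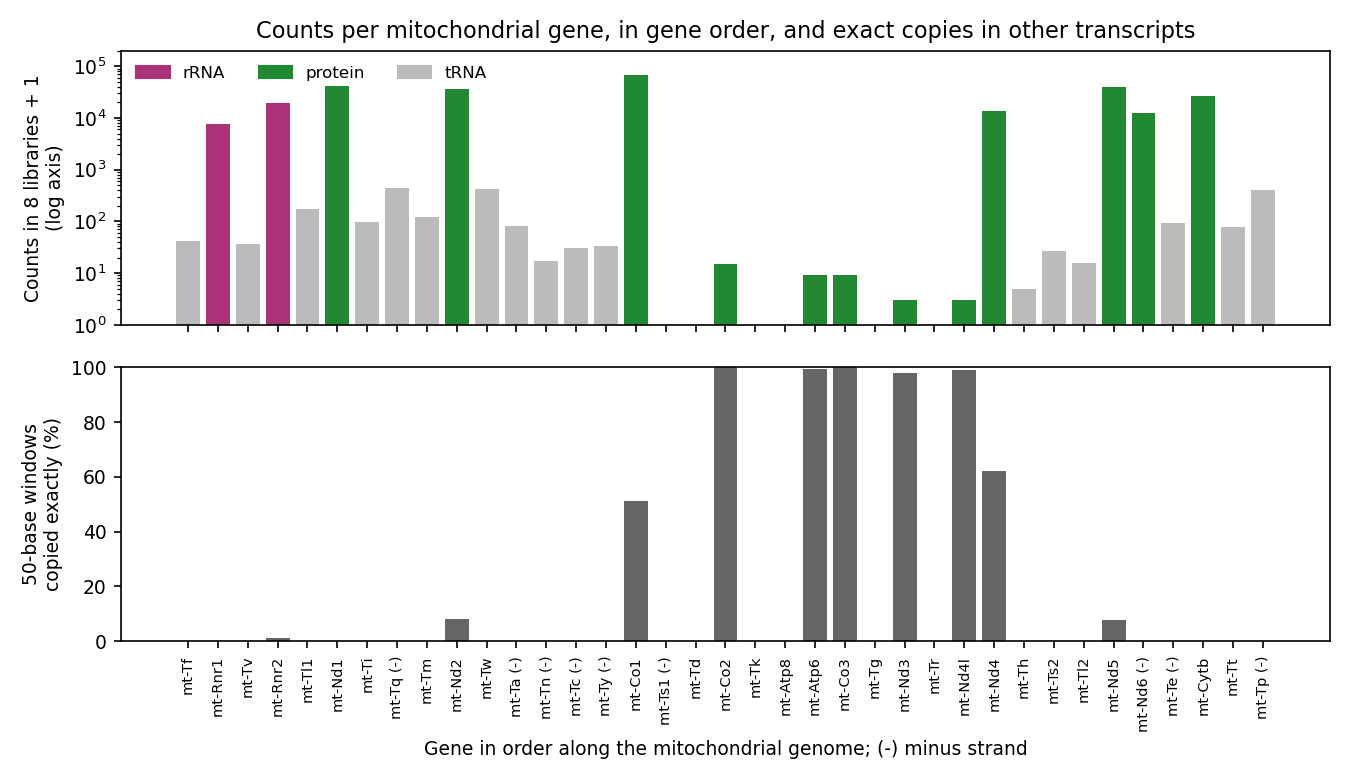
Counts summed over the 8 washout libraries, plus 1, on a log axis (upper panel) and the percent of 50-base windows found unchanged in another annotated transcript (lower panel), for the 37 genes in genome order. The run from mt-Ts1 to mt-Nd4l holds 34 counts, and its 5 protein genes with windows of this kind reach 98.0% to 100%.

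Per length, the means of the 7 protein genes outside the uncounted run were above those of the rRNA genes in EtOH libraries, although the ranges of mt-Nd4 and mt-Rnr2 overlapped. In TMM-scaled CPM per kb (mean ± SD, n = 4), mt-Co1, the catalytic subunit of complex IV, had 408 ± 24.0, and the complex I subunit genes mt-Nd1 and mt-Nd2 had 407 ± 62.2 and 342 ± 41.2. They were followed by mt-Nd6 with 248 ± 81.9, mt-Cytb, the mitochondrially coded subunit of complex III, with 221 ± 59.4, and mt-Nd5 with 209 ± 22.4. The gene mt-Nd4 had 91.7 ± 18.2, below all 4 values of mt-Nd5. The large rRNA mt-Rnr2 had 59.1 ± 44.5 and the small rRNA mt-Rnr1 27.4 ± 16.4. Whether a step of library preparation removed rRNA was not examined, so this is an order of counts and not of RNA synthesis. Of the tRNA genes with at least 100 counts, mt-Tw had 56.4 ± 3.13, mt-Tq 56.0 ± 14.5, mt-Tp 52.6 ± 9.71, mt-Tl1 21.3 ± 8.62 and mt-Tm 16.3 ± 2.51. Ordered by mean, mt-Tw, mt-Tq and mt-Tp fall between mt-Rnr2 and mt-Rnr1. In that order of rRNA, protein and tRNA genes together, neighbours overlapped in the range of their 4 libraries, except mt-Nd5 over mt-Nd4.

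The order depended on how copied sequence was treated. Counted per kb of windows without a copy, a choice made after seeing the data, mt-Co1 had 862 CPM per kb in place of 408 and mt-Nd4 had 252 in place of 91.7, while mt-Nd6 had 273, mt-Nd5 233 and mt-Cytb 231. On that scale the ranges of mt-Co1 and mt-Nd1 did not overlap, and neither did those of mt-Nd2 and mt-Nd6 or of mt-Cytb and mt-Rnr2. The rRNA genes, with 61.6 and 28.9, had lower means than these 7 protein genes. Because 4-thiouridine enters RNA in place of uridine, base composition was read beside the levels. T made up 43.7% of the sense sequence of mt-Nd6, 27.4% to 32.8% of the plus-strand protein genes and 26.4% of each rRNA gene.

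The comparison of IAA with EtOH asks what differed 1 day after auxin was withdrawn. The small rRNA mt-Rnr1 was the member that passed the test, and it was higher after IAA. Values are given here in the order 10E library 1, 10E library 2, 11D library 1, 11D library 2. The EtOH libraries had 12.6, 45.9, 14.6 and 31.7 CPM of mt-Rnr1 and the IAA libraries had 52.4, 147, 138 and 303 CPM. All 4 IAA libraries lay above all 4 EtOH libraries, which held for 1 of the 15 tested members and for 11.8% of all tested genes, while 11.3% of genes and 0 members lay wholly below. The log2 fold change was 2.61 ± 0.54 (SE), a 6.1-fold difference, with an adjusted p of 0.0106 (edgeR quasi-likelihood test, Benjamini-Hochberg over 15110 genes). Of the 37 members 15 passed the filter on low counts, of which 1 was called higher and 0 lower, against a background of 8.83% of all tested genes called higher and 7.60% called lower. In the authors' deposited washout table mt-Rnr1 was likewise the 1 member with an adjusted p under 0.05 (log2 fold change 2.52, adjusted p = 0.00247), where 8.96% of genes were called higher and 7.05% lower. The call was lost without IAA library 2 of line 10E (adjusted p = 0.0531) and with no filter on low counts (adjusted p = 0.0785), at log2 fold changes of 2.66 and 2.56.

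The large rRNA mt-Rnr2 lies next to mt-Rnr1 on the same precursor, with the valine tRNA gene mt-Tv between them. It had 26.4, 172, 42.1 and 134 CPM in EtOH and 123, 261, 391 and 592 CPM in IAA libraries. The groups overlapped, since EtOH library 2 of both lines lay above IAA library 1 of line 10E. Its log2 fold change was 1.87 ± 0.62 with an adjusted p of 0.0659 in edgeR, over 0.05. It was 0.0428 without EtOH library 2 of line 10E and 0.0424 without IAA library 1 of that line.

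Both rRNAs also differed between the 2 libraries of the same line and treatment. The library numbered 2 was higher in 4 of 4 pairs for each, by 2.18 to 3.65 times for mt-Rnr1 and 1.51 to 6.50 times for mt-Rnr2. In a test of library number across all genes, adjusted for line and treatment, mt-Rnr1 was the 1 gene of 15110 called (0.00662%), with a log2 difference of 1.40 ± 0.18 and an adjusted p of 0.0342 in edgeR. At an unadjusted p under 0.05 there were 1095 genes, of which 3 were members: both rRNAs and mt-Nd6. For mt-Rnr2 the difference was 1.5 ± 0.30 with an adjusted p of 0.661. For mt-Nd6 it was 0.50 ± 0.19 with an adjusted p of 0.661, and library 2 was higher in 4 of 4 pairs, by 1.01 to 2.09 times. Leaving out a library changed these calls: 0 members were called without either 10E EtOH library or either 10E IAA library, and 2 without either 11D IAA library. Among libraries numbered 1, mt-Rnr1 averaged 13.6 CPM in EtOH and 95 CPM in IAA, and among those numbered 2 it averaged 38.8 and 225 CPM, so IAA libraries were higher within each number. The labels do not say what the numbers stand for.

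**Figure D2:**
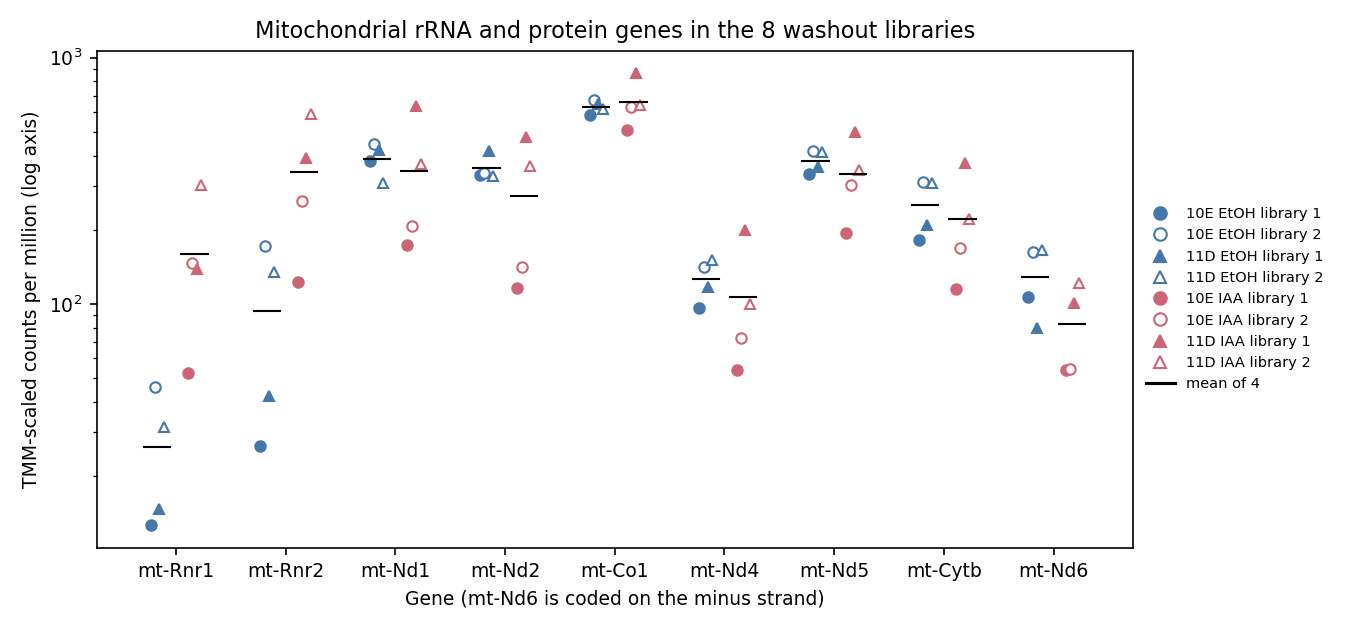
TMM-scaled CPM on a log axis for the 2 rRNA genes and the 7 protein genes with counts, in each washout library (colour: treatment, shape: line, filled: library 1, open: library 2) with the mean of 4 as a bar. For mt-Rnr1 the IAA libraries, at 52.4 to 303 CPM, sit above the EtOH libraries, at 12.6 to 45.9 CPM, and open symbols sit above filled ones of the same line and treatment.

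As a part of all mitochondrial counts, the 2 rRNA genes made up 1.88%, 7.97%, 2.44% and 6.66% in EtOH and 12.4%, 20.3%, 14.3% and 29.0% in IAA libraries. The means were 4.74% ± 3.03 and 19.0% ± 7.46 (SD, n = 4), and the groups did not overlap. The two-sided exact permutation p was 0.0286, the smallest that 4 against 4 libraries allow, and 0.0571 after adjustment over the 4 classes compared. Permuted within lines, the exact p was 0.0556, the smallest that this allows. Protein genes took the complementary course, at 94.5% ± 3.00 and 80.0% ± 7.23, with the same exact p-values, and without the rRNA genes in the total their difference was -0.425 percentage points (exact permutation p = 0.143). The tRNA genes held 0.780% ± 0.100 in EtOH and 1.02% ± 0.517 in IAA libraries (exact permutation p = 0.571, adjusted 0.571).

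Counts on a few heavily counted nuclear loci moved in the same direction. Counts on 6 nuclear loci that each held over 1% of some library were 7.12% to 11.4% of all counts in EtOH libraries. In IAA libraries they were 29.9% to 40.7%. The ribosomal RNA locus CT010467.1, over 1% in every library, led them. Alone it took 5.73% to 9.27% in EtOH and 20.8% to 29.3% in IAA libraries (exact permutation p = 0.0286). The others were Cdk8, Lars2, Gphn, Gm23935 and Cmss1. The 6 loci were picked by their share of counts, not by annotation, and are called rRNA-like here. A locus could pass through the libraries of 1 treatment alone, so the sum over the 6 is given without a test. Whether the counts on the others come from ribosomal RNA was not tested. With these 6 loci left out of the library sizes, the log2 fold change of mt-Rnr1 was 2.63 (adjusted p = 0.0105) and that of mt-Rnr2 was 1.89 (adjusted p = 0.0658) in edgeR. That changes the scaling only. Whether the differences in mitochondrial rRNA and at the 6 loci have a common source was not tested.

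**Figure D3:**
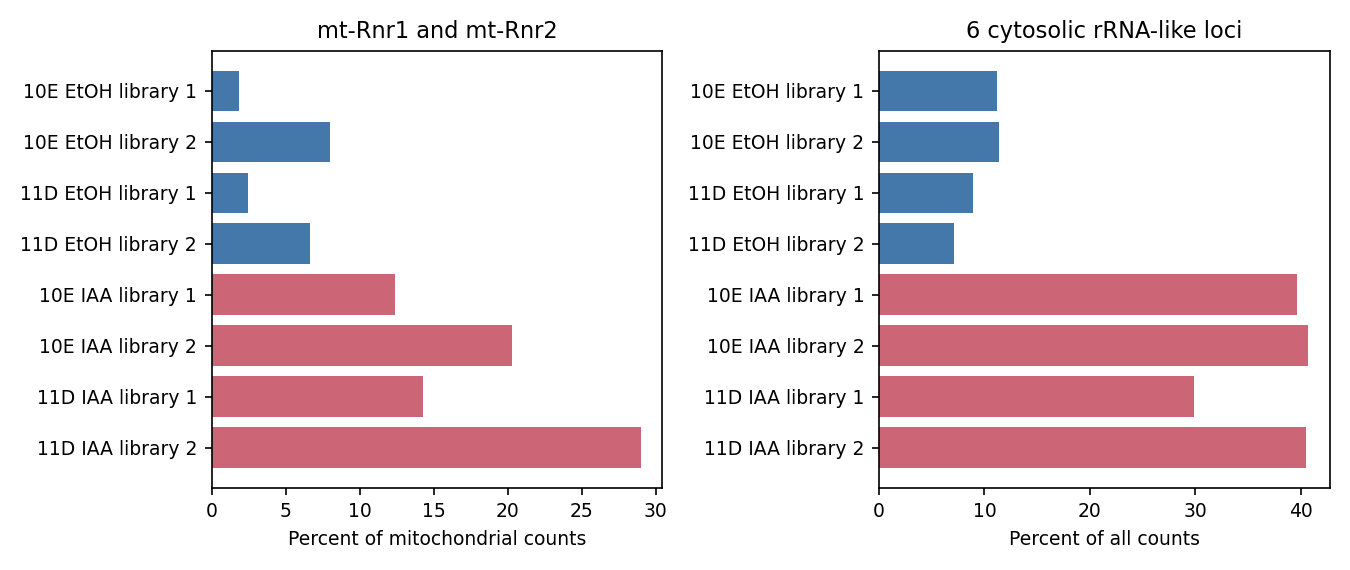
Percent of mitochondrial counts on mt-Rnr1 and mt-Rnr2 (left) and percent of all counts on the 6 nuclear loci called rRNA-like (right), 1 bar per washout library. On the left IAA libraries span 12.4% to 29.0% against 1.88% to 7.97% in EtOH, and on the right 29.9% to 40.7% against 7.12% to 11.4%.

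The share of all counts on mitochondrial genes did not differ beyond the spread of the libraries. It was 0.243%, 0.358%, 0.278% and 0.319% in EtOH and 0.110%, 0.140%, 0.350% and 0.253% in IAA libraries, where the 10E libraries were low and the 11D libraries lay within the EtOH range. Exact 95% binomial intervals, which cover counting error only, spanned 0.108% to 0.113% in the shallowest library. The means were 0.300% ± 0.0499 and 0.213% ± 0.110 (exact permutation p = 0.257). Outside the 6 rRNA-like loci they were 0.332% ± 0.0562 and 0.336% ± 0.151 (p = 0.971, same exact permutation test). In such bulk libraries fewer mitochondrial genomes per cell and less RNA per genome cannot be told apart.

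None of the 7 tested protein genes passed the test over both lines. Complex I genes had log2 fold changes of -0.17 ± 0.34 (mt-Nd1), -0.37 ± 0.38 (mt-Nd2), -0.24 ± 0.34 (mt-Nd4), -0.18 ± 0.24 (mt-Nd5) and -0.63 ± 0.31 (mt-Nd6). The values of mt-Cytb and mt-Co1 were -0.20 ± 0.32 and 0.07 ± 0.19. Their adjusted p-values ran from 0.178 for mt-Nd6 to 0.839 for mt-Co1 (edgeR). The median over the 15 tested members was -0.08, against -0.05 over all tested genes.

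After IAA the 10E libraries were low for most of these genes, and the 11D libraries lay within or above the EtOH range. For mt-Nd2, EtOH libraries had 333, 339, 419 and 330 CPM and IAA libraries 116, 141, 475 and 363 CPM. The 10E IAA libraries were below all 4 EtOH libraries, and those of 11D were not. For mt-Nd1, EtOH libraries had 379, 447, 420 and 310 CPM and IAA libraries 173, 207, 635 and 370 CPM, with 10E again below every EtOH library. The minus-strand gene mt-Nd6 had 107, 162, 79.4 and 166 CPM in EtOH and 53.6, 54.1, 101 and 122 CPM in IAA libraries, so that 10E was lower and 11D was not set apart.

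The remaining protein genes showed smaller differences between the lines. For mt-Nd4 the EtOH values were 95.8, 141, 117 and 151 CPM and the IAA values 53.8, 72.5, 200 and 100 CPM. For mt-Nd5 they were 336, 417, 358 and 414 CPM and 194, 305, 497 and 349 CPM. For mt-Cytb they were 181, 312, 208 and 309 CPM and 115, 168, 374 and 222 CPM. In each of these the 10E IAA libraries lay below the EtOH libraries and 11D library 1 lay highest of all 8. The share of all tested genes with 10E IAA libraries below every EtOH library was not counted. The order, here and for mt-Nd1, mt-Nd2 and mt-Nd6, is therefore not read as particular to the members. Genes on a shared precursor are also not independent of each other. The gene mt-Co1 varied least, with 586, 671, 648 and 616 CPM in EtOH and 508, 630, 863 and 640 CPM in IAA libraries.

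In line 10E alone, as a contrast in a fit of the 4 groups of line and treatment, 3 members were lower after IAA: mt-Nd1 (log2 fold change -1.12 ± 0.30, adjusted p = 0.0286), mt-Nd2 (-1.38 ± 0.25, adjusted p = 0.00683) and mt-Nd6 (-1.32 ± 0.34, adjusted p = 0.0272), in edgeR. The background in that contrast was 9.43% called lower and 8.84% called higher. In line 11D alone 0 members were called, with a background of 1.59% higher and 1.02% lower, and the values were 0.46 ± 0.29, 0.16 ± 0.24 and -0.14 ± 0.33. For mt-Rnr1 both lines had positive values, 1.76 ± 0.74 in 10E (adjusted p = 0.132) and 3.25 ± 0.78 in 11D (adjusted p = 0.0752).

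Whether the lines differed was tested as the interaction of line and treatment. In edgeR 0 of 15110 genes passed, with 2251 genes and 5 members at an unadjusted p under 0.05. The values of these 5, 11D minus 10E, were 1.58 ± 0.41 for mt-Nd1 (adjusted p = 0.264), 1.54 ± 0.34 for mt-Nd2 (0.261) and 1.18 ± 0.47 for mt-Nd6 (0.300). They were 1.61 ± 0.52 for mt-Tw (0.264) and 1.07 ± 0.48 for mt-Nd4 (0.332). DESeq2 called mt-Nd1 (1.53 ± 0.41, adjusted p = 0.0300) and mt-Nd2 (1.5 ± 0.35, adjusted p = 0.00915), with 0.276% of 12675 genes called positive and 0.797% negative. A difference between the lines in mt-Nd1 and mt-Nd2 thus rests on the tool. In EtOH the lines differed in 0 of 15110 genes by edgeR, and in 366 genes and 0 members at an unadjusted p under 0.05. The log2 differences of the members in EtOH ran from -0.78 (mt-Ti) to 0.18 (mt-Nd4).

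**Figure D4:**
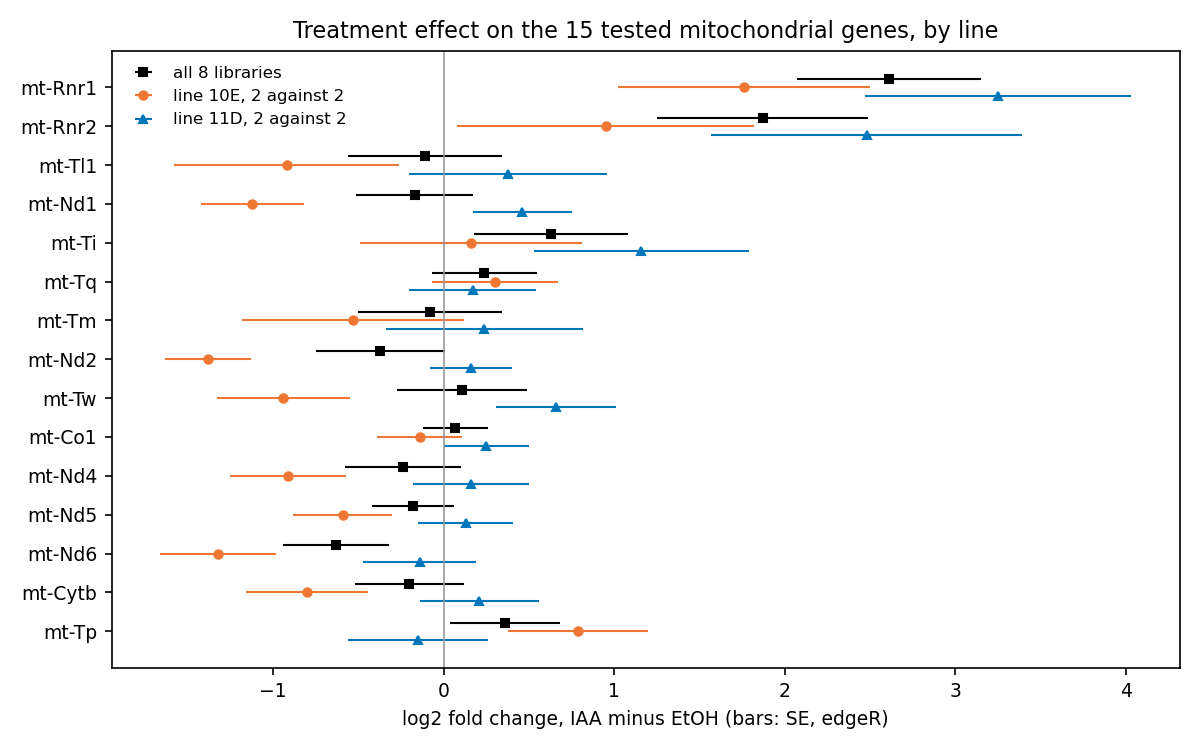
Log2 fold change, IAA minus EtOH, for the 15 tested mitochondrial genes over all 8 libraries (black) and within line 10E (orange) and line 11D (blue), with SE from edgeR as bars. The rRNA genes are right of 0 in both lines, and mt-Nd1, mt-Nd2 and mt-Nd6 are at -1.12, -1.38 and -1.32 in 10E.

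Counts on tRNA genes were low, and these genes are 59 to 75 bases long. Of 22 tRNA genes 5 were at 0 and 6 passed the filter on low counts, and 0 of these 6 were called. Their log2 fold changes ran from -0.11 (mt-Tl1) to 0.63 (mt-Ti). The most counted, mt-Tq, had 4.17, 5.35, 3.17 and 3.20 CPM in EtOH and 6.85, 4.99, 3.42 and 3.77 CPM in IAA libraries. For mt-Tw, whose gene is on the plus strand, the values were 3.63, 3.92, 4.00 and 3.58 CPM and 1.96, 1.97, 6.24 and 5.77 CPM, with 10E below and 11D above all EtOH libraries. The share of all tested genes with that order was not counted. For mt-Tp, on the minus strand, they were 3.09, 3.69, 2.96 and 4.38 CPM and 7.24, 4.60, 3.72 and 2.88 CPM.

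By strand, the 8 tRNA genes of the minus strand summed to 7.83 to 10.9 CPM in EtOH and 10.1 to 16.8 CPM in IAA libraries (exact permutation p = 0.0571). The 14 of the plus strand summed to 8.42 to 10.4 and 6.05 to 13 CPM (exact permutation p = 0.686). All minus-strand genes, of which mt-Nd6 holds most counts, made up 5.62%, 6.33%, 3.75% and 7.07% of mitochondrial counts in EtOH and 4.98%, 3.30%, 3.01% and 4.32% in IAA libraries. The groups overlapped, at means of 5.69% ± 1.42 and 3.90% ± 0.912 (exact permutation p = 0.0857, adjusted 0.114).

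In the time course, values come from the authors' deposited tables, which do not say which groups are compared or in which direction, so signs are as deposited and the fold changes are shrunken toward 0. In the authors' deposited table for 0 h, mt-Nd6 was called with a log2 fold change of -1.24 (SE 0.23, adjusted p = 9.83e-06), as 1 of 53 genes called negative (0.355%), beside 3 called positive (0.0201%). The other 6 protein genes whose mean count reached 1000 were at 0.00 in that table, with adjusted p-values of 0.791 to 1. At 3 h mt-Co1 was called in the authors' deposited table with 0.78 (SE 0.28, adjusted p = 0.0497), against a background of 0.531% called positive and 0.0458% negative, and mt-Nd1 had 0.67 (adjusted p = 0.111).

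The authors' deposited table for 6 h called 0 members, against 1.71% of genes called positive and 1.39% negative. Its values were 0.73 for mt-Nd1, 0.71 for mt-Nd2, 0.70 for mt-Co1, 0.53 for mt-Cytb, 0.43 for mt-Nd5, 0.40 for mt-Nd4 and 0.00 for mt-Nd6, and the lowest adjusted p was 0.0589 (mt-Nd2). The authors' deposited table for 12 h also called 0 members, where 8.58% of genes were called positive and 12.1% negative. There mt-Co1 had 0.52 (adjusted p = 0.249) and mt-Nd6 -0.27 (adjusted p = 0.477). In these authors' deposited tables the copied genes were low as well: mt-Co2, mt-Atp6 and mt-Co3 had means of 15.4 to 58.1 counts, against 1050 to 73700 for the 7 others named above.

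**Figure D5:**
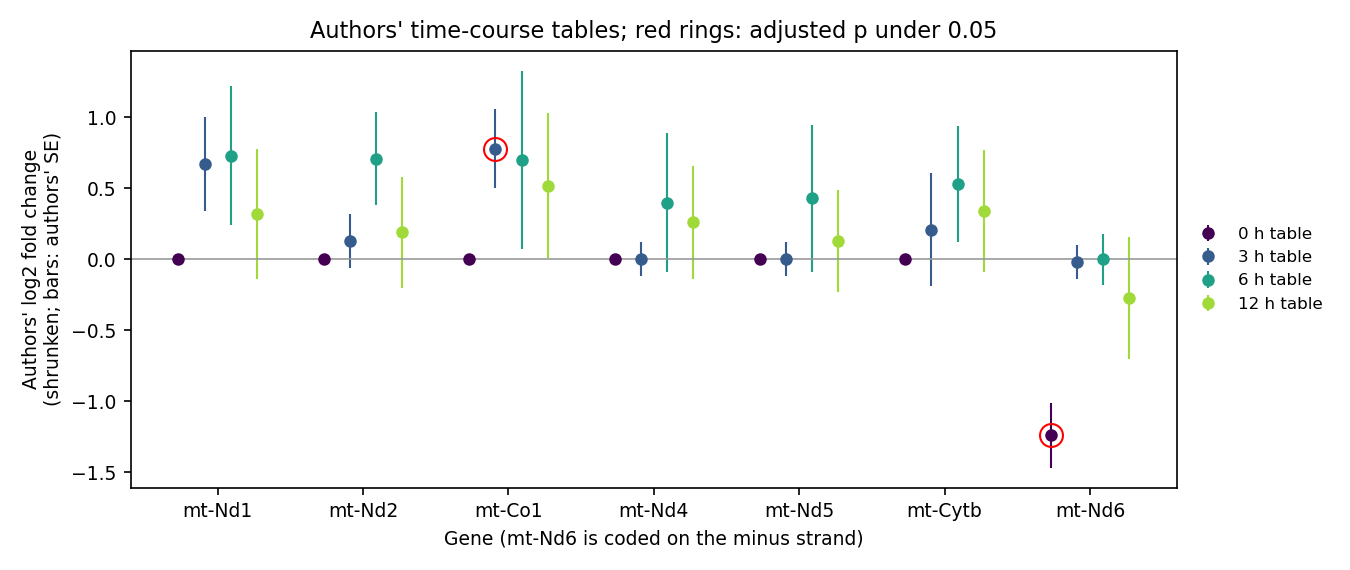
Log2 fold changes with SE from the authors' deposited gene tables at 0, 3, 6 and 12 h for the 7 protein genes whose mean counts reach 1000, as signed there. Red rings mark mt-Nd6 in the 0 h table (-1.24) and mt-Co1 in the 3 h table (0.78).

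PROMPT rows are named after the gene whose upstream region they cover, and such transcripts run as a rule away from the gene on the other strand. The windows and strands of these rows are not given in the sources used here. In the authors' deposited PROMPT table for 0 h, the row of mt-Nd5 was the 1 row of 12182 with an adjusted p under 0.05 (0.00821% negative, 0% positive), at a log2 fold change of -1.85 (SE 0.42, adjusted p = 0.00415, mean count 133). In the same authors' deposited table mt-Tw had -0.73 (adjusted p = 0.909, mean 1880), mt-Tt, the threonine tRNA gene, had -0.58 (adjusted p = 0.993, mean 2630), and mt-Ti and mt-Tp had 0.00. The authors' deposited PROMPT tables called 0 mitochondrial rows at 3, 6 and 12 h, where 0%, 0.122% and 3.11% of rows were called positive and 0%, 0% and 1.93% negative. The mt-Nd5 row had 0.00, -0.02 and 0.13 in these authors' deposited tables. Of the 18 rows, those of mt-Nd5, mt-Tw, mt-Ti, mt-Tp and mt-Tt had means of at least 58.8 counts at each time, and the other 13 had means of at most 3.56.

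Nuclear genes whose products serve mitochondrial DNA and RNA were read from a pair of lists. Of 28 tested genes for maintenance and transcription of mitochondrial DNA, 0 were higher and 1 was lower after IAA in the washout (edgeR), with a median log2 fold change of -0.04 against -0.05 over all genes. The lower one was Tfb1m, the methyltransferase that modifies the small mitochondrial rRNA (-0.60 ± 0.18, adjusted p = 0.0387). It had 30.6, 30.6, 39 and 36.3 CPM in EtOH and 18.2, 25.0, 26.7 and 20.3 CPM in IAA libraries, which did not overlap.

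Of 33 tested genes for processing, modification and decay of mitochondrial RNA, 3 were higher and 2 lower (edgeR), with a median of 0.00. Elac2, the nuclease that cuts the 3′ ends of tRNAs from precursors, was higher (1.22 ± 0.26, adjusted p = 0.00975), at 32.9, 22, 25.2 and 15.1 CPM in EtOH and 77.1, 61.8, 43.1 and 40.4 CPM in IAA libraries. Lrpprc, which stabilises mitochondrial mRNAs (0.71 ± 0.18, adjusted p = 0.0182), and Grsf1, a protein of the RNA granules (0.61 ± 0.19, adjusted p = 0.0460), were higher too. Fastk, a form of which acts on mt-Nd6 mRNA (-0.77 ± 0.19, adjusted p = 0.0185), and Trnt1, which adds CCA to tRNA ends (-0.70 ± 0.22, adjusted p = 0.0427), were lower. These shares lie near or below the background of 8.83% higher and 7.60% lower for all genes.

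At 12 h, 0 of 29 genes for mitochondrial DNA were called positive in the authors' deposited table, with 8.58% over all genes. The median was -0.32 against 0.01, and 7 of the 29 were called negative (24.1%, with 12.1% over all genes). They were Tfb1m (-1.96), Nrf1 (-1.77), Dguok (-1.51), Ssbp1 (-1.32), Mterf1b (-1.10), Primpol (-1.01) and Gabpb1 (-0.66). Nrf1 is a nuclear transcription factor for mitochondrial protein genes, and Ssbp1 is the protein that coats single-stranded mitochondrial DNA. Of 32 genes for mitochondrial RNA in the authors' deposited table for 12 h, 2 were positive (6.25%, with 8.58% over all genes), Mrm1 (1.35) and Endog (1.55). The median was -0.21, and 8 were negative (25.0%, with 12.1% over all genes). The negative ones include Mtpap, the poly(A) polymerase (-1.27), Prorp, the nuclease subunit of RNase P (-0.96), and Supv3l1, the helicase of the RNA decay complex (-0.76), while Trit1 (-1.16), Nsun3 (-1.14), Trnt1 (-0.65), Fastkd2 (-0.60) and Cdk5rap1 (-0.60) complete them. At 6 h the authors' deposited table called Ssbp1 (-0.67), Nrf1 (-0.77) and Mrm1 (0.73). These are 2 of 28 genes for mitochondrial DNA called negative (7.14%, with 1.39% over all genes) and 1 of 32 for mitochondrial RNA called positive (3.12%, with 1.71%). The tables for 0 and 3 h called 0 genes of either list.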

How the data were processed

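The authors deposited raw counts of read pairs per gene for the 8 washout libraries. Per the file headers, featureCounts 2.0.1 counted reverse-stranded pairs, both ends mapped, over entire genes, and no option for multi-mapping pairs is set. STAR, deepTools and mm10 are named in the submitters' processing notes. The authors' deposited comparison tables give a log2 fold change with its SE, raw and adjusted p-values, and a mean normalised count per row as a signal, with a test score (Wald type by its column name) in the washout table, which was not used. Their tools are not given in the sources used here.

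The washout was tested with edgeR 4.0.16 (robust quasi-likelihood, two-sided) in R 4.3.3 with TMM scaling, the filterByExpr filter and Benjamini-Hochberg adjustment over all 15110 genes tested, at 0.05. SE values are the log2 fold change over the square root of F. CPM use TMM-scaled library sizes. DESeq2 1.42.0 was an alternative. Shares were compared with exact permutation tests in SciPy 1.17.1. The fit was tested on simulated data: of 50 genes made higher by a log2 change of 2 among 15232, 50 were called, and of 50 made higher by 1, 35 were called. The simulation gave all genes the same fixed dispersion and no difference between lines or library numbers. Its call rates are therefore not those of the real libraries.

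The treatments share both lines, so the samples are paired by line, and line as a block was tried as an alternative. Beyond the lines, nothing states that replicate libraries are separate cultures, and p-values then reflect only the spread among libraries, which may be technical. The washout columns are named by line and the titles by clone number, and which is which is not stated. Coordinates are mm10, 1-based, and all 37 match those of GENCODE M21, whose transcripts gave the sequences and the 50-base windows. The enhancer and DNase-site tables were not used, having 0 mitochondrial rows. Named are the rRNA and protein genes, the 3 tRNA genes of highest mean count, each member called in any test, and each list gene called. Members and lists were chosen with earlier results of these data known.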

Additional observations from a re-analysis of the deposited data

Results flagged for a closer look

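Among the 4 EtOH libraries, mt-Nd2 had 333, 339 and 330 CPM in 3 of them and 419 CPM in 11D library 1. The gap of that library to its nearest neighbour was 0.9 of the whole range of the group, over Dixon's 95% critical value for 4 samples. It was 1 of 40 groups of 4 values examined, and chance passes about 1 group in 20.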

How the results depend on the processing

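Members called in the washout numbered 1 in the reported fit, 2 with line and library number as a replicate block (mt-Rnr1 at 2.56 and mt-Rnr2 at 2.06, adjusted p = 0.000579 and 0.00668), 2 with libraries scaled to mitochondrial counts (mt-Rnr2 at 1.80, adjusted p = 0.00249), 3 in line 10E alone and 0 in line 11D alone, and 0 to 2 when 1 library was left out. With line alone as a replicate block mt-Rnr1 had 2.51 (adjusted p = 0.0126), and that block changed no other member's call. Same-numbered libraries of a line did not deviate together (r from -0.5 to 0.34), so the numbers are not taken as pairs. With no filter the 1 member called was mt-Nd6 (-0.68, adjusted p = 0.00957) in place of mt-Rnr1.

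Calls over all genes numbered 2483 in the reported fit, 1467 with the block of line and library number, 395 in line 11D alone, and 1417 to 2641 with 1 library left out, falling to 1553 without 10E EtOH library 2 and to 1417 without 10E IAA library 1. Members with a line-by-treatment interaction numbered 2 in DESeq2 and 0 in edgeR, with every library or with any 1 left out. Members called by library number ranged from 0 to 2 with 1 library left out.

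The difference in the mitochondrial share of counts (-0.0861 percentage points) reversed to 0.00439 outside the rRNA-like loci, 0.0148 with TMM library sizes (added after seeing the data) and 0.00337 in line 11D alone, and was -0.132 to -0.0518 with 1 library left out. Permuted within lines as a replicate block, its p was 0.222, where 0.0556 is the smallest possible. The rRNA difference was 10.9 to 16.5, the protein difference -16.5 to -11.3, the minus-strand difference -2.44 to -1.33 and the tRNA difference -0.014 to 0.374 percentage points with 1 library left out. Without the rRNA genes the protein difference was -0.425 (p = 0.143, exact permutation). In line 11D alone mt-Nd1 (0.46), mt-Nd2 (0.16), mt-Nd4 (0.16), mt-Nd5 (0.13) and mt-Cytb (0.21) reversed, as did mt-Co1 in 10E alone (-0.14). With 1 library left out, values passed 0 for mt-Nd1 (-0.61 to 0.06, positive at 0.02 and 0.06), mt-Nd5 (-0.41 to 0.02), mt-Cytb (-0.56 to 0.02) and mt-Co1 (-0.07 to 0.18).

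In the authors' deposited gene tables, the 3 h call was lost at an adjusted p of 0.01 and with adjustment over every row (0 members), and 1 member (mt-Nd2) passed 0.1 at 6 h. PROMPT calls did not change. The cause was not tested in these cases. The 11 nearly uncounted genes hold too few counts for a comparison.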

Other observations

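The nuclear copies on chromosome 1 were themselves nearly empty of counts. Gm28661, the copy of mt-Co2, held 11 counts over the 8 libraries, Gm28437 held 4, Gm10925 held 6, Gm28439, which copies the start of mt-Nd4, held 10, and Gm10222 held 33. Gm28438, which differs from mt-Nd3 by T3C in the reference sequences, held 109 counts, 2 to 29 per library, while mt-Nd3 held 2. The base that the E14 cells carry there was not examined. Whether these pairs came from the nuclear copy or from mitochondrial RNA was not tested. 

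The ratio of mt-Rnr2 to mt-Rnr1 counts had means of 3.24 ± 0.937 for EtOH and 2.23 ± 0.473 for IAA (SD over 4 libraries, exact permutation p = 0.114). The ratio of mt-Nd6 to mt-Nd5 counts, genes of opposite strands that share an end, was 0.332 ± 0.0822 in EtOH and 0.252 ± 0.0775 in IAA libraries (exact permutation p = 0.229).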
